A study of Mus musculus with 3 samples.

Results

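The genes described here are 9 of the 32285 genes counted in the wound sections. They were taken by symbol and follow the path of iron out of spilled blood. *Hba-a1*, *Hbb-bs* and *Hbb-bt* encode the α and β chains of haemoglobin, *Hmox1* and *Blvrb* encode enzymes of haem breakdown, *Cd163* encodes a macrophage receptor that takes up haemoglobin bound to haptoglobin, *Fth1* and *Ftl1* encode the heavy and light chains of the iron store ferritin, and *Slc40a1* encodes ferroportin, the iron exporter. The second α-globin gene, *Hba-a2*, is given beside *Hba-a1*, and the sum of these 4 globin genes is called the summed globins.

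Spatial transcriptomes came from skin with full-thickness excisional punch wounds in the back of C57BL/6J mice. The study describes the mice as adult, male and age-matched, and gives their age as a range in weeks. Tissue was taken 3, 7 and 14 days after injury, with 1 section for each day (Day 3, Day 7 and Day 14). The word slide stands below for the whole array of spots of 1 section. The labels do not say whether the sections shared a glass slide. All 3 sections were wounded and otherwise untreated, and none was unwounded skin. With no replicate section, differences between days cannot be told apart from differences between animals, sections or arrays of spots. No test between days was made.

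A red cell that leaves a vessel is cleared by phagocytes, above all by macrophages. Inside the phagocyte haem is opened by haem oxygenase 1 (*Hmox1*), which sets free iron, carbon monoxide and biliverdin, and the iron is stored in ferritin or leaves through ferroportin. *Hmox1* is also induced by haem itself and by oxidative stress through the transcription factors NRF2 and BACH1, and ferritin is made by nearly all cells. Mature red cells of mammals have no nucleus, and their globin RNA is left over from their precursors.

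Counts are unique molecular identifiers (UMIs), each standing for 1 captured RNA molecule. The sections held 664, 549 and 697 spots marked as tissue on Day 3, Day 7 and Day 14, with 1772259, 4442962 and 4611723 UMIs and a median of 1513, 6687 and 4827 UMIs per spot, so Day 3 was the shallowest. The spots outside the marked tissue were not empty. They held between 1703210 and 6457066 UMIs per slide, with marker genes among them, so they are not read as a background. The same 4992 position barcodes occur in all 3 arrays of spots. Marker genes of skin were present in the marked spots, and those of skeletal muscle were abundant there too, at 39853, 54811 and 62309 CPM (UMIs per 1000000 UMIs of all genes) for a list of 10 muscle genes on Day 3, Day 7 and Day 14. A spot can hold several cells of different types, and fewer cells of a type and less RNA per cell cannot be told apart. Ratios between sets of spots carry exact 95% intervals of counting error only, and a gene is called higher or lower where the ratio was at least 1.5-fold, the interval left out no change and the gene had at least 50 UMIs over both sets.

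The 4 globin genes moved together in these data. The sequences before their transcription starts are shown first, and their part in the levels was not tested. Each is the 150 bases before the RefSeq start in GRCm38.p6, read 5′ to 3′ on the gene's strand, with 3 motifs in capitals wherever they stand on either strand. The first is CCAAT, which reads ATTGG from the other strand. The next is TATAA, the usual core of a TATA box. The last is CACCC, a motif bound by erythroid Krüppel-like factors. *Hba-a1* is on the plus strand at chr11:32283522-32283671, *Hba-a2* on the plus strand at chr11:32296342-32296491, *Hbb-bs* on the minus strand at chr7:103827929-103828078 and *Hbb-bt* on the minus strand at chr7:103813924-103814073.
Hba-a1: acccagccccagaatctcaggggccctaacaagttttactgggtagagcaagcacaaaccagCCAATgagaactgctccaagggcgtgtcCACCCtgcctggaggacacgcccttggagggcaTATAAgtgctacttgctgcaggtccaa
Hba-a2: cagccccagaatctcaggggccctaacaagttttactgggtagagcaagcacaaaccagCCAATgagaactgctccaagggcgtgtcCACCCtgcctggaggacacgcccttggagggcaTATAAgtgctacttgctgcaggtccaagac
Hbb-bs: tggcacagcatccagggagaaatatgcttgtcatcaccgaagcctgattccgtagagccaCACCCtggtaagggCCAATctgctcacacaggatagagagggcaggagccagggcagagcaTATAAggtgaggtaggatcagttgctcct
Hbb-bt: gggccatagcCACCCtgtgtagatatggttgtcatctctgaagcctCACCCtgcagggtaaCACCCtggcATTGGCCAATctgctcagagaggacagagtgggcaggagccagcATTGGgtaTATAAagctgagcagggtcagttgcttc
All 4 windows held all 3 motifs. Over the 32851 windows of the same length in the RefSeq table, CCAAT was found in 24.5%, TATAA in 14.2% and CACCC in 37.4%. TATAA began 27, 30, 29 and 28 bases before the start of *Hba-a1*, *Hba-a2*, *Hbb-bs* and *Hbb-bt*. The windows of *Hba-a1* and *Hba-a2* matched in 147 of 153 aligned columns and those of *Hbb-bs* and *Hbb-bt* in 112 of 153. These matches are descriptions of the letters and not of a bound factor. Of the 9 genes, 7 had an entry in the promoter table. The RefSeq starts differ from those of the GENCODE annotation used for gene positions, so all 4 windows reach into the gene spans that GENCODE gives.

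For ferritin and ferroportin, the sequence that carries their known control lies in the 5′ leader of the RNA. This iron-responsive element is a hairpin whose loop is bound by iron regulatory proteins when iron is scarce. It acts on translation, which UMI counts do not measure. The pattern searched was a C, 5 bases, the loop CAGTGN and 5 bases that pair with the first 5, on the strand of the transcript, in 5′ leaders of the GENCODE M21 annotation of GRCm38. It is shown with the loop in capitals, for *Fth1* at chr19:9982732-9982761 on the plus strand, *Ftl1* at chr7:45459778-45459807 on the minus strand and *Slc40a1* at chr1:45925464-45925493 on the minus strand.
Fth1: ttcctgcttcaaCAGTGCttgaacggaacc
Ftl1: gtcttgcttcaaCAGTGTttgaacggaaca
Slc40a1: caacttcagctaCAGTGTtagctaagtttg
The pattern was found in 31 of 20597 genes (0.151%). No match was found in the leaders of *Hmox1*, *Blvrb* or *Cd163*.

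The globins are encoded in 2 clusters. In the GENCODE M21 annotation of GRCm38, *Hba-a1* (ENSMUSG00000069919) lies at chr11:32283511-32284465 on the plus strand, *Hbb-bs* (ENSMUSG00000052305) at chr7:103826534-103828096 and *Hbb-bt* (ENSMUSG00000073940) at chr7:103812524-103813996, both on the minus strand. Each has 3 exons. The coding sequences of *Hba-a1* and *Hba-a2* were the same at 425 of 426 bases and those of *Hbb-bs* and *Hbb-bt* at 440 of 441, with 84.7% and 79.3% identity over the last 200 bases of the transcripts, where capture by the poly(A) tail reads. The split of UMIs within each pair is therefore uncertain, and the summed globins do not depend on it.

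Globin RNA was highest in the Day 3 section, lowest on Day 7 and high again on Day 14. In the marked spots the summed globins reached 7872 UMIs in the Day 3 section, 1780 in that of Day 7 and 8945 in that of Day 14 (4442, 401 and 1940 CPM). The Day 7 level was lower than that of Day 3 by a log2 ratio of -3.47 (95% interval -3.55 to -3.40), and the Day 14 level was higher than that of Day 7 by 2.28 (2.20 to 2.35). The Day 14 level was still lower than that of Day 3, at -1.20 (-1.24 to -1.15).

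Each globin gene followed the same course. In section order, *Hba-a1* stood at 970.5, 65.7 and 447 CPM. *Hbb-bs*, an adult β chain gene, stood at 1661, 144 and 692 CPM. *Hbb-bt* stood at 241, 24.1 and 123 CPM, and *Hba-a2* at 1570, 167 and 678 CPM. For all 4 genes the order of the sections was Day 3, Day 14, Day 7, and no 2 of their intervals overlapped. Proportions within the globins varied less than their level. *Hba-a1* per *Hbb-bs* was 0.584 (95% interval 0.550 to 0.620), 0.456 (0.396 to 0.525) and 0.647 (0.612 to 0.684) on Day 3, Day 7 and Day 14, and *Hbb-bt* per *Hbb-bs* was 0.145, 0.167 and 0.178.

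**Figure D1:**
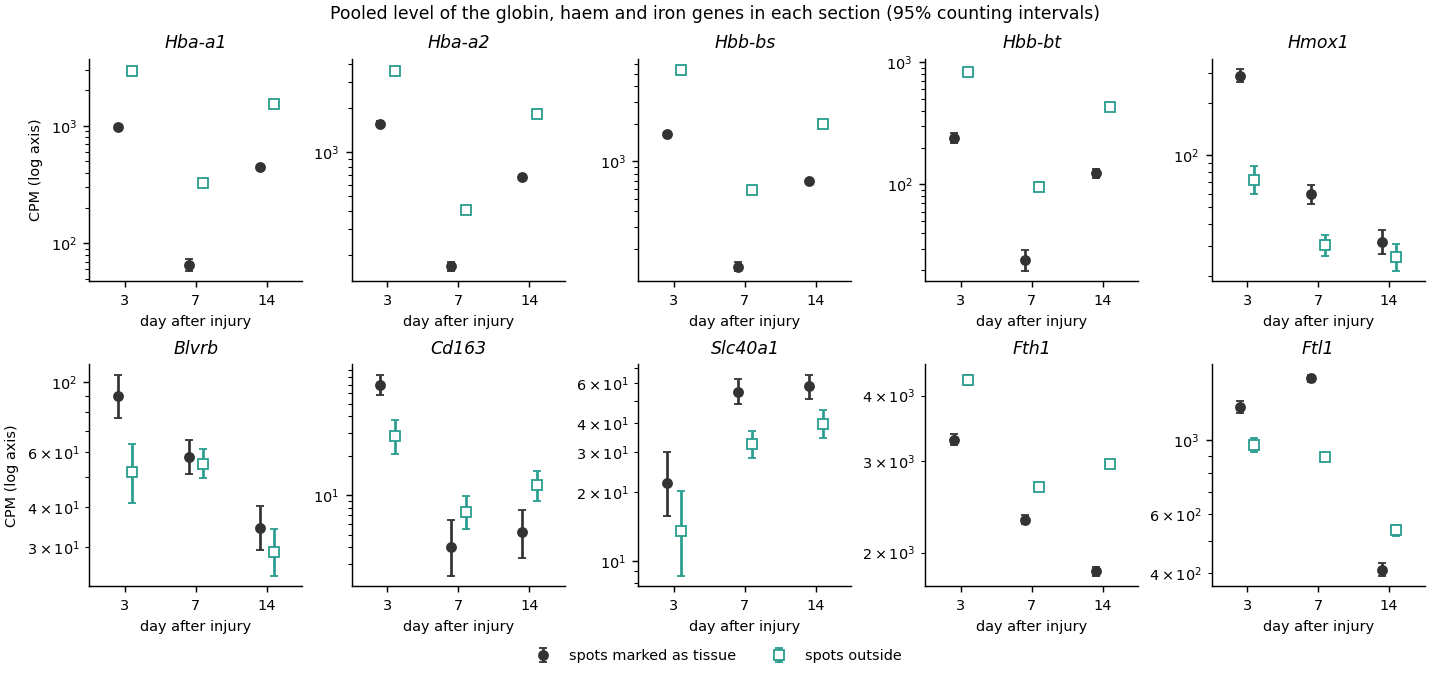
Pooled level of each gene in CPM (log axis, a scale of its own for each gene) against day after injury, in spots marked as tissue (filled circles) and in spots outside (open squares), with 95% counting intervals and 1 section per day. The 4 globin genes dip on Day 7 and lie higher outside the marked tissue on every day, while *Hmox1* goes down from 288 to 59.4 and 31.7 CPM in marked spots.

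At equal depth globin RNA was found in most marked spots on Day 3 and Day 14, with a few very rich ones, but not in most on Day 7. After thinning every spot to 1000 UMIs, which left out 238, 24 and 18 shallower spots, the summed globins had a UMI in 82.9% of 426 spots on Day 3, 35.05% of 525 on Day 7 and 72.5% of 679 on Day 14, against 78.9%, 84.0% and 96.4% of all marked spots without thinning. The 4 richest marked spots held 25.2%, 5.51% and 16.5% of the globin UMIs, in section order. The richest single spot held 649 globin UMIs in the first section, 31 in the second and 706 in the third.

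Most globin RNA of each slide lay outside the marked tissue. The outside spots held 73.4%, 83.7% and 75.3% of the slide's globin UMIs on Day 3, Day 7 and Day 14, against 49.0%, 59.2% and 50.6% of the UMIs of all genes. In CPM, the summed globins outside stood at 12752, 1417 and 5796, which was higher than under tissue by log2 ratios of 1.52 (1.48 to 1.56), 1.82 (1.75 to 1.90) and 1.58 (1.55 to 1.61). The course over the days was the same on both sides. Muscle moved with this difference: in outside spots with at least 500 UMIs the muscle list stood at 95147, 119943 and 129833 CPM, above the levels under tissue given earlier. Without the muscle-richest spots on both sides (the third with the highest share of the list), the log2 ratios were 1.13 on Day 3 and 2.35 on Day 14.

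Among the 9 genes counted on Day 7 over Day 3, 1 was called higher and 6 lower, where 16.9% of 10541 counted genes were called higher and 14.4% lower. On Day 14 over Day 7, 8 of the 9 genes were counted, 3 higher and 3 lower, against 22.6% and 14.8% of all counted genes. On Day 14 over Day 3, 1 of 9 was higher and 8 were lower, against 25.6% and 13.6%. The gene called higher in both comparisons with Day 3 was *Slc40a1*. The 3 called higher on Day 14 over Day 7 were the globins. The shares called lower among these genes were above those of all genes in each comparison, in lists chosen with earlier results of these data known.

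*Hmox1* (ENSMUSG00000005413, chr8:75093621-75100589, plus strand, 5 exons) was lower in each later section. Its marked spots held 511 UMIs at first (Day 3), then 264 (Day 7) and 146 (Day 14), or 288, 59.4 and 31.7 CPM. Day 7 stood below Day 3 by a log2 ratio of -2.28 (-2.50 to -2.06), and Day 14 stood below Day 7 by -0.91 (-1.21 to -0.61). In contrast to the globins, it did not stand higher on Day 14 than on Day 7. After thinning to 1000 UMIs, 10.8% of spots on Day 3 had an *Hmox1* UMI, 5.91% on Day 7 and 3.68% on Day 14, and among the tenth of spots richest in the muscle list the shares were 0 of 43, 0 of 53 and 1 of 68. A count of 0 spots here leaves room for a share of up to 8.22% on Day 3 and 6.72% on Day 7 (exact 95% limits).

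The Day 3 *Hmox1* signal was concentrated in 1 place. The 4 spots with the most *Hmox1* UMIs held 88, 79, 68 and 36 of them, together 271 of 511 (53.0%). All 4 were neighbours on the slide, with at most 1.73 spot pitches between any pair. On Day 7 the 4 richest spots held 7.95% of the *Hmox1* UMIs and on Day 14 8.22%, with at most 6 and 3 UMIs in a spot. In the Day 3 patch *Hmox1* stood at 3478 CPM against 142 CPM in the other marked spots, a ratio of 24.6-fold. Without the 4 richest spots of each section the log2 ratio of *Hmox1* from Day 3 to Day 7 was -1.34, and as a mean over spots of the CPM of each spot it was -1.22.

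Ferritin, the exporter and the globins stood higher in the same 4 spots. The light ferritin chain *Ftl1* stood at 7200 CPM against 988 (log2 ratio 2.87, 2.73 to 3.00), and the heavy chain *Fth1* at 10550 CPM against 2959 (1.83, 1.73 to 1.94). The exporter *Slc40a1* had 11 of its 39 UMIs there (3.10, 1.94 to 4.15). The summed globins stood at 14221 CPM against 3992 (1.83), although they were uneven among the 4 spots, at 279, 88, 92 and 649 UMIs. *Blvrb* had 12 UMIs in the patch (0.82, -0.17 to 1.67) and the receptor *Cd163* had 1 (-2.50, -7.82 to 0.0052), and both intervals held no change. The patch was chosen by its *Hmox1*, so the level of that gene there is a description, and these spots were singled out after the values were seen.

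What else the patch held is given by the marker lists. The 10-gene macrophage list stood at 9241 CPM against 4254 in the other marked spots (log2 ratio 1.12, 1.01 to 1.23), and a granulation tissue list of matrix and contractile genes at 3953 against 1396 (log2 ratio 1.501). The neutrophil list was higher by 0.74, and muscle, epidermis and fat lists were lower by -2.38, -2.43 and -2.60. Single genes of the path list differed in both directions, and no share over all genes was computed for these spots. *Srxn1*, which repairs oxidised peroxiredoxin, differed by 2.86 (15 of 60 UMIs), the cystine carrier gene *Slc7a11* by 2.67 (14 of 62), the glutathione synthesis gene *Gclm* by 1.84 and the thioredoxin reductase gene *Txnrd1* by 1.21. The iron importer gene *Slc39a14* differed by 2.33 and the haem transporter gene *Slc48a1* by 1.69. The haem synthesis gene *Fech* differed by -2.61 (1 UMI in the patch and 133 in the other marked spots) and *Hp* by -0.90, and *Ireb2*, which encodes an iron regulatory protein, had none of its 89 UMIs there. Each of the 4 spots was deep, with 12510 to 23372 UMIs.

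**Figure D2:**
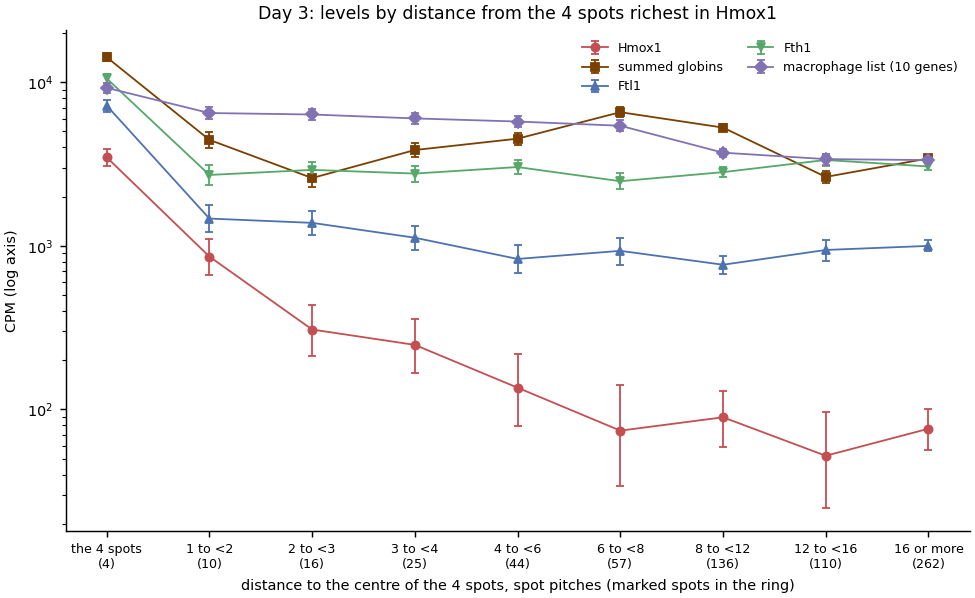
Day 3 levels in CPM (log axis) of *Hmox1*, the summed globins, *Ftl1*, *Fth1* and the macrophage list against distance from the centre of the 4 spots richest in *Hmox1*, with 95% counting intervals and the number of marked spots in each ring in parentheses. *Hmox1* goes down from 3478 CPM in the patch to 860 and 308 CPM in the next rings and 76.3 CPM at 16 spot pitches or more, while the macrophage list is 9241 CPM in the patch and 3343 CPM in the outermost ring.

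Levels by distance from the patch are given as a description, since its spots were chosen by *Hmox1*. *Hmox1* stood at 3478 CPM in the patch, 860 CPM in the 10 spots between 1 and 2 pitches from its centre, 308 CPM between 2 and 3 pitches and 248 CPM between 3 and 4. It was 136 CPM between 4 and 6 pitches and 52.1 to 89.6 CPM in all rings farther out. *Ftl1* was 7200 CPM in the patch, 1468, 1382 and 1121 CPM in the next 3 rings and 832 CPM between 4 and 6 pitches. *Fth1* was 10550 CPM in the patch and 2712 CPM in the next ring, and it lay between 2483 and 3348 CPM in the rings beyond.

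**Figure D3:**
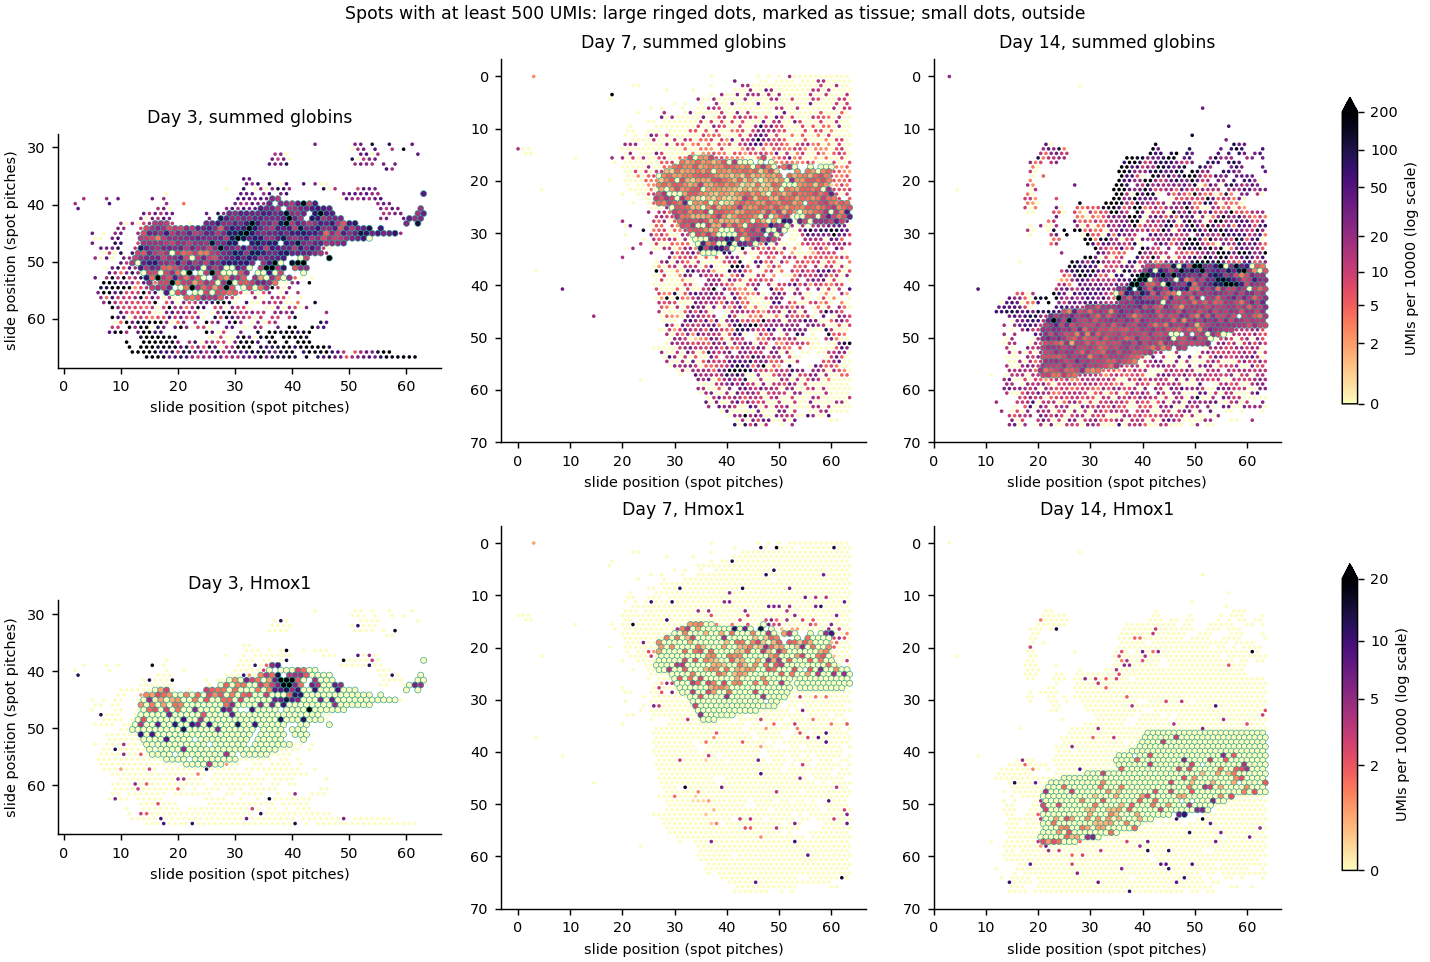
Summed globins (upper row) and *Hmox1* (lower row) in UMIs per 10000 (log color scale) at each spot with at least 500 UMIs, over slide position in spot pitches, for Day 3, Day 7 and Day 14. Large ringed dots are spots marked as tissue and small dots are outside. Globins are seen over the whole slide and in unmarked tissue, while Day 3 *Hmox1* has 1 dense patch of 4 spots with 271 of its 511 UMIs in marked tissue.

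Whether *Hmox1* and the iron genes lay where the blood was is addressed by comparing blood-rich spots with the other marked spots of the same section. Blood-rich spots are the tenth of marked spots with at least 500 UMIs that had the most globin UMIs per UMI of all other genes (52 of 520, 54 of 539 and 69 of 689 spots). The globins chose these spots, so their own level there is no result. The lowest value inside and the highest outside the limit were 72.1 and 70.9 globin UMIs per 10000 on Day 3, 11.03 and 10.68 on Day 7, and 31.6 and 30.9 on Day 14. Globins made up 2.57%, 0.249% and 1.93% of all UMIs in them, so a blood-rich spot of Day 7 held far less globin than one of the other days. A list of other red cell genes, led by the haem synthesis gene *Alas2*, stood at 71.7 CPM in blood-rich spots against 4.997 in the others on Day 3, 0 against 0.468 on Day 7, and 107 against 11.1 on Day 14. The Day 7 spots are therefore blood-rich by globins alone. The list rests on few UMIs, so a level of 0 there does not show that red cell genes were absent.

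On Day 3 *Hmox1* was higher in the blood-rich spots. It had 152 of 509 UMIs there, 1017 CPM against 224 CPM, a log2 ratio of 2.19 (1.90 to 2.46). This value rested on the patch: without the 4 spots richest in *Hmox1* it was 0.77, and without the 4 spots richest in globins, of which a pair belongs to the patch, it was 0.11. In the outside spots of Day 3 the same comparison gave -0.19. On Day 7 *Hmox1* stood at 65.6 CPM in blood-rich spots and 59.2 CPM in the others (0.15, -0.87 to 1.01), which was not called. On Day 14 it had 1 UMI in blood-rich spots against 144 in the others, 4.95 against 32.7 CPM (-2.73, -8.04 to -0.23). Blood-rich spots held more of the muscle list on Day 7 (108434 against 52694 CPM) and Day 14 (155487 against 57935), but not on Day 3 (39900 against 39335), and its part in these values was not tested. Without the muscle-richest spots the Day 14 value was -1.11.

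Of the 6 haem and iron genes other than globins, 5 were counted in this comparison on Day 3, with 2 called higher and 1 lower, against 5.06% and 6.6% of all counted genes. On Day 7 none of the 5 counted was higher and 1 was lower, against 4.15% and 5.54%. On Day 14, 2 of 5 were higher and 2 lower, against 5.63% and 23.6%. *Ftl1* was called on each day, in changing directions, with log2 ratios of 0.79 (0.62 to 0.97), -0.81 (-1.05 to -0.57) and 0.71 (0.44 to 0.96) on Day 3, Day 7 and Day 14. The Day 3 value was 0.29 without the 4 *Hmox1*-richest spots and -0.08 without the 4 globin-richest. In outside spots the Day 7 value was 0.14, and the Day 14 value was -0.28 without the muscle-richest spots. *Fth1* was called on Day 14 only, at 3432 CPM against 1771 (0.95, 0.84 to 1.07), and it stood at 0.20 there without the muscle-richest spots. *Cd163* had 3 of its 124 UMIs in the blood-rich spots of Day 3 (-1.92, -4.21 to -0.33). *Slc40a1* had 5 of 268 UMIs in those of Day 14 (-1.27, -2.91 to -0.03), but the value was -0.11 without the muscle-richest spots and 0.42 with spots ranked by globin UMIs per spot.

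Spots next to blood-rich spots were compared with the remaining marked spots. On Day 3 the 157 neighbours had *Hmox1* at 457 CPM against 120 CPM in the remaining 311 spots (log2 ratio 1.94, 1.62 to 2.26) and *Ftl1* at 1755 against 948 CPM (0.89, 0.76 to 1.02). These neighbours included spots of the patch, with 79 and 68 of their 225 *Hmox1* UMIs. The same spots held 187 and 208 of the 864 *Ftl1* UMIs of the neighbours. The Day 3 values of the neighbours thus rest largely on the patch, and values without it are not given here. On Day 7 and Day 14 the *Hmox1* ratios were -0.05 and -0.18, with intervals that held no change. On Day 14 *Slc40a1* was lower in the neighbours, with 7 of 263 UMIs (-1.62, -2.95 to -0.56).

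Macrophage-rich spots are the tenth of the same marked spots with the most UMIs of the macrophage list (*Lyz2*, *Cd68*, *Adgre1*, *C1qa*, *C1qb*, *C1qc*, *Csf1r*, *Cd14*, *Fcgr3* and *Ctss*) per UMI. Blood-rich and macrophage-rich spots were nearly separate, with 1, 2 and 5 spots in both on Day 3, Day 7 and Day 14. Macrophage-rich spots also held more of the granulation list, at 2447 against 1384, 12635 against 8666 and 3830 against 1717 CPM in section order. They held less of the muscle list on Day 3 (20633 against 41901 CPM) and Day 7 (27604 against 60138). Their median depth on Day 7 was 14086 against 6229 UMIs. The part of these differences in the values of these spots was not tested. The summed globins were lower in the macrophage-rich spots of Day 7 (205 against 439 CPM, log2 ratio -1.10, -1.35 to -0.86), and not called on Day 3 (-0.22) or Day 14 (-0.52).

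The haem and iron genes were counted in macrophage-rich spots as in blood-rich ones. Of the 6 genes, 5 were counted on Day 3 and all 5 were called higher, against 12.2% of all counted genes higher and 9.97% lower. With the macrophage list without *Lyz2*, a lysozyme gene that neutrophils express too, *Hmox1* stood at -1.38, *Fth1* at -0.17 and *Ftl1* at 0.07 on Day 3, so these 3 of the 5 calls were lost or reversed. On Day 7, 4 of 5 were higher and none lower, against 6.24% and 11%. On Day 14, 2 of 5 were higher and none lower, against 6.9% and 6.95%. The difference between the 2 classes of spots in these counts was not tested.

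*Hmox1* in macrophage-rich spots stood at 934 CPM against 204 on Day 3 (log2 ratio 2.20, 1.93 to 2.46), 96.2 against 52.3 on Day 7 (0.88, 0.46 to 1.28) and 28.7 against 31.7 on Day 14 (-0.14, -1.18 to 0.74). Without the 4-spot patch the Day 3 value was 0.55. Ranked by the list without *Lyz2* it was -1.38. On Day 7 the value without *Lyz2* was 0.98.

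*Ftl1* was higher in the macrophage-rich spots of every section, at 2635 against 1083 CPM on Day 3, 3595 against 1135 on Day 7 and 1016 against 355 on Day 14. The log2 ratios were 1.28 (1.14 to 1.42), 1.66 (1.59 to 1.73) and 1.52 (1.35 to 1.68). On Day 3 the ratio was 0.55 without the patch and 0.07 with the list without *Lyz2*, and on Day 7 and Day 14 it was 1.53 and 1.41 with that list. *Fth1* differed less, with 0.63 (0.53 to 0.73), 0.45 and 0.27, and was called on Day 3 only, where it was 0.09 without the patch. The Day 3 direction was also reversed as a mean of spot CPM (-0.055), after thinning (-0.23) and with the list without *Lyz2* (-0.17). Ferritin light chain per heavy chain was accordingly higher in macrophage-rich spots: *Ftl1* per *Fth1* was 0.553 (0.497 to 0.614), 1.21 (1.14 to 1.28) and 0.465 (0.412 to 0.525) UMIs there, against 0.383, 0.665 and 0.223 over all marked spots.

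*Blvrb*, which encodes the NADPH-dependent biliverdin reductase B, was the other gene called higher in macrophage-rich spots on each day. Its log2 ratios were 0.66 (0.02 to 1.26), 1.07 (0.66 to 1.47) and 0.90 (0.20 to 1.55). In blood-rich spots it was not called on any day, at 0.04, 0.19 and -0.23. The gene (ENSMUSG00000040466) lies at chr7:27447978-27466144 on the plus strand. Under tissue it had 160, 257 and 159 UMIs, or 90.3, 57.8 and 34.5 CPM, and it was lower in each later section, by log2 ratios of -0.64 (Day 3 to Day 7) and -0.75 (Day 7 to Day 14).

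**Figure D4:**
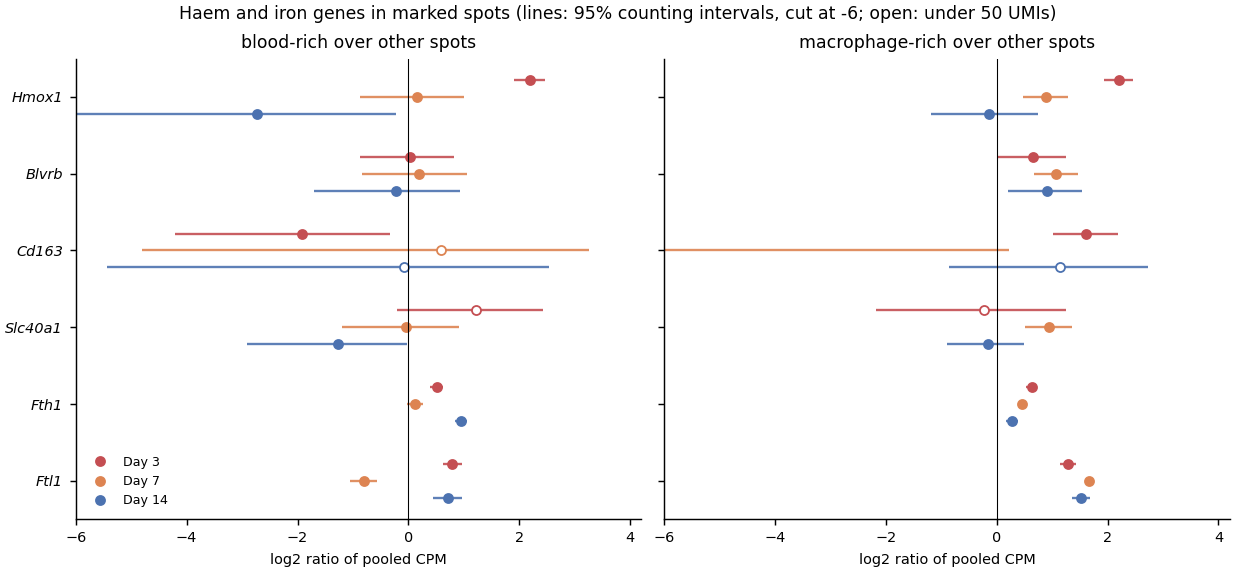
Log2 ratio of pooled CPM of the 6 haem and iron genes in blood-rich (left) and macrophage-rich (right) spots over the other marked spots of the same section, by day. Lines are 95% counting intervals, ended at -6 where they run lower, and open points have under 50 UMIs. *Ftl1* and *Blvrb* lie to the right of 0 in the macrophage-rich spots on all 3 days, and *Hmox1* lies at 2.19 on Day 3 and -2.73 on Day 14 in blood-rich spots.

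The 2 classes were also crossed. On Day 3 the 1 spot in both had 88 *Hmox1* UMIs, 4670 CPM. The 51 spots that were blood-rich only stood at 490 CPM, the 51 that were macrophage-rich only at 564 CPM, and the 417 in neither at 178 CPM. The spot in both belongs to the 4-spot patch, as do 36 of the 64 *Hmox1* UMIs of the spots that were blood-rich only, so these Day 3 values rest on the patch too. For all macrophage-rich spots of Day 3 the log2 ratio over the other marked spots was 0.55 without the patch. Relative to the spots in neither class, the log2 ratio was 1.46 (1.04 to 1.86) for blood-rich only and 1.66 (1.32 to 1.996) for macrophage-rich only. On Day 7 the same ratios were 0.36 (not called) and 0.90 (0.48 to 1.31), and on Day 14 -2.65 and -0.15. For *Ftl1* the ratios of macrophage-rich only were 1.08, 1.65 and 1.54, and those of blood-rich only were 0.41, -0.37 and 0.81.

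*Cd163* (ENSMUSG00000008845, chr6:124304656-124330527, plus strand, 17 exons) was found mainly on Day 3. The marked spots of the 3 sections held 124, 18 and 24 of its UMIs, or 70.0, 4.05 and 5.204 CPM. Day 7 was lower than Day 3 by a log2 ratio of -4.11 (-4.91 to -3.39). Day 14 over Day 7 had under 50 UMIs in all and was not counted. Per UMI of the macrophage list *Cd163* was 0.0156, 0.00149 and 0.00474, so it was lower on Day 7 and Day 14 relative to those markers as well.

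On Day 3 *Cd163* was higher in macrophage-rich spots (36 of 124 UMIs, log2 ratio 1.61, 1.01 to 2.18). With the list without *Lyz2*, *Cd163* stood at 2.12 and *Hmox1* at -1.38. With spots ranked by UMIs of the list, *Cd163* stood at -0.05. *Cd163* was also higher in the tenth of spots richest in 5 genes that the study used for its M2 macrophages (*Mrc1*, *F13a1*, *Wfdc17*, *Cbr2* and *Gas6*), with 34 UMIs and 2.72 (2.11 to 3.30). In those same M2-rich spots *Hmox1* had 9 of 509 UMIs (-1.67). In spots rich in 5 genes of the study's M3 macrophages (*Arg1*, *Spp1*, *Ctsd*, *Cd36* and *Lgals3*) *Hmox1* stood at 1260 against 196 CPM (2.68, 195 UMIs) and *Cd163* at 51.7 against 72.5 CPM (-0.49, -1.73 to 0.54, not called). The 4-spot patch held 271 *Hmox1* UMIs, and its M3 genes stood at 4762 CPM against 2324 CPM in the other marked spots. The part of the patch in the M3 value was not tested. Across the 520 spots of that section Pearson's r between *Hmox1* and *Cd163* was -0.0022, a weak correlation in sparse counts.

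The ratio of *Cd163* outside to under tissue differed in sign between the sections, while the order of the sections was the same in both places. It was lower outside than under tissue on Day 3, at 28.2 against 70.0 CPM (log2 ratio -1.31, -1.82 to -0.82). It was higher outside on Day 7, at 7.43 against 4.05 CPM (0.88, 0.07 to 1.75, but -0.11 as a mean over spots of the CPM of each spot), and on Day 14, at 11.9 against 5.204 CPM (1.19, 0.48 to 1.95). The outside values rest on 48, 48 and 56 UMIs.

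For all 9 genes, 3 were called higher and 3 lower outside on Day 3, against 8.85% and 33.8% of all counted genes. On Day 7, 4 were higher and 3 lower, against 7.56% and 31.3%, and on Day 14, 5 were higher and none lower, against 5.66% and 44.6%. The 3 globins were higher on each day. *Hmox1* was lower outside on Day 3 (72.2 against 288 CPM, log2 ratio -1.997) and Day 7 (30.2 against 59.4, -0.98), and not called on Day 14 (25.9 against 31.7, -0.29). Part of the Day 3 difference came from the patch, without which the marked spots stood at 142 CPM, still above the 72.2 CPM outside. As a mean of spot CPM the Day 3 ratio was reversed, at 0.41. On Day 3 the outside *Hmox1* level differed with the depth of the spots: it was 133 and 158 CPM in spots with under 100 UMIs and from 100 to under 500 UMIs, and 46.5 CPM in spots with 500 UMIs or more.

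The heavy and light ferritin chains took different courses over the sections. *Fth1* (ENSMUSG00000024661, chr19:9980598-9985098, plus strand) had 5836, 10275 and 8491 UMIs under tissue, or 3293, 2313 and 1841 CPM. Its log2 ratios were -0.51 and -0.33 between neighbouring days, both under the 1.5-fold limit, and -0.84 (-0.89 to -0.79) for Day 14 over Day 3. *Ftl1* (ENSMUSG00000050708, chr7:45457944-45459884, minus strand) had 2235, 6832 and 1891 UMIs, or 1261, 1538 and 410 CPM. It was not called between Day 3 and Day 7 (0.29) and was lower on Day 14 than on Day 7 (-1.91, -1.98 to -1.83). The light chain thus had its highest level, 1538 CPM, in the section where the globins were lowest, although its ratio to Day 3 was not called.

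The gene *Ftl1-ps1* on chromosome 13 shares 547 of 549 coding bases with *Ftl1*, and 75% of its last 200 bases. It had 372, 544 and 238 UMIs under tissue. Reads of the pair could be split between them, and the *Ftl1* values are uncertain to that extent.

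The ferritin chains differed in muscle-rich spots. In the tenth of marked spots richest in the muscle list *Fth1* stood at 5463 against 3171 CPM on Day 3 (log2 ratio 0.78), 3196 against 2287 on Day 7 (0.48) and 4183 against 1742 on Day 14 (1.26). *Ftl1* was lower there on Day 3 and Day 7 (-0.61 and -1.37) and higher on Day 14 (0.78). *Hmox1* had 3, 2 and 0 UMIs in the muscle-rich spots of Day 3, Day 7 and Day 14. Globins were not higher in muscle-rich spots on Day 3 (-0.50), and were higher on Day 7 (2.38, 2.18 to 2.58) and Day 14 (2.29, 2.20 to 2.37), when 24 of 54 and 28 of 69 of these spots were also blood-rich.

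On Day 14 the globins were also high in spots rich in fat genes (log2 ratio 2.42) and in endothelial genes (1.99), and on Day 3 in spots of the granulation list (1.11). They were lower in epidermis-rich spots on Day 3 (-0.97) and Day 14 (-1.34). *Hmox1* on Day 3 was highest in granulation-rich spots, with 324 of 509 UMIs (3.74, 3.47 to 4.005), among which were spots of the patch. The patch held 271 *Hmox1* UMIs in all, and its part in this value was not tested. On Day 7 *Hmox1* was higher in granulation-rich (0.92), matrix-rich (0.90) and macrophage-rich spots (0.88). On Day 14 its highest ratio was in spots of the neutrophil list, with 24 of 145 UMIs (1.22, 0.53 to 1.87). That list stood at only 144 CPM under tissue on Day 14. The 4 spots with the most *Hmox1* on Day 14 held 680, 132, 678 and 1155 UMIs of the epidermis list. Of the neutrophil list they held 3, 4, 6 and 9. All marker lists overlap in spots and are read as descriptions.

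**Figure D5:**
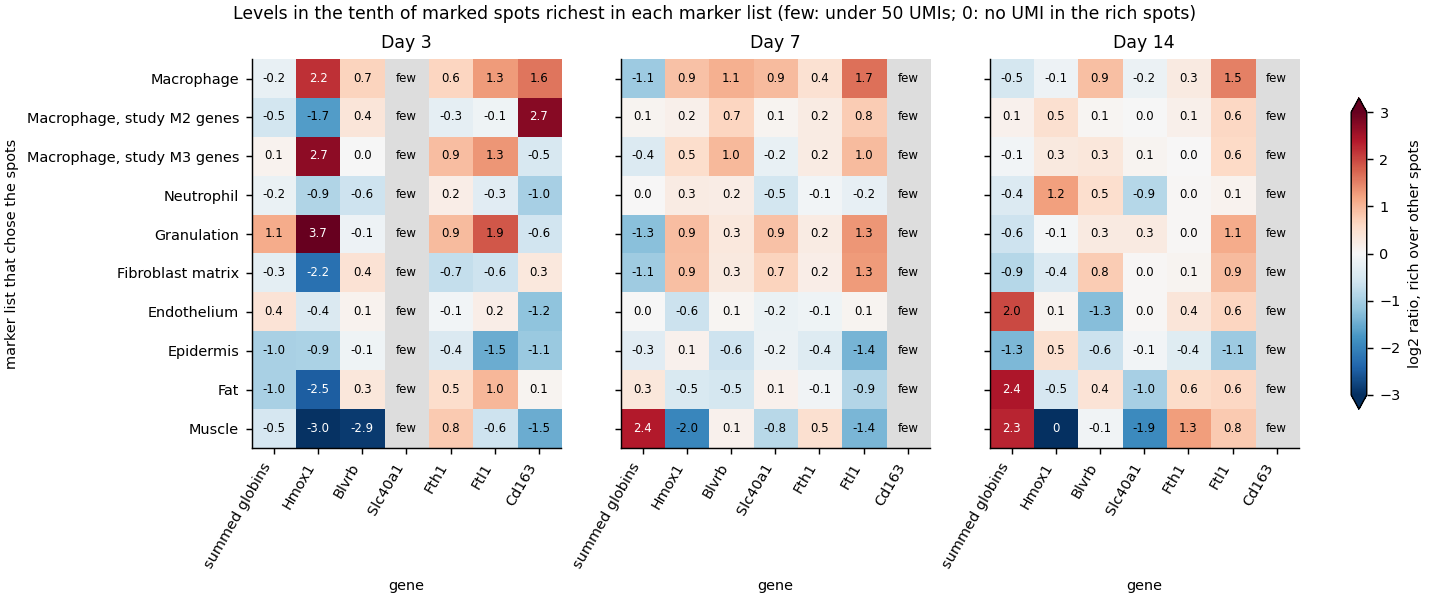
Log2 ratio of pooled CPM in the tenth of marked spots richest in each of 10 marker lists over the other marked spots (color and number), for the summed globins and the 6 haem and iron genes on Day 3, Day 7 and Day 14. Grey cells had under 50 UMIs in all, and the 0 marks *Hmox1* with no UMI in the muscle-rich spots of Day 14. Globins are at 2.38 and 2.29 in muscle-rich spots on Day 7 and Day 14. Day 3 *Hmox1* is at 3.74 in granulation-rich spots, among which are spots of the *Hmox1* patch.

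*Slc40a1* (ENSMUSG00000025993, chr1:45908068-45926523, minus strand, 8 exons) was the gene that was higher after Day 3. Its UMIs numbered 39, 245 and 268 in section order, or 22.0, 55.1 and 58.1 CPM, and the intervals of Day 7 and Day 14 overlapped. Day 7 was higher than Day 3 by a log2 ratio of 1.33 (0.83 to 1.85), while Day 14 stood at 0.08 (-0.18 to 0.33) relative to Day 7. On Day 7 it was higher in macrophage-rich spots (92.05 against 47.95 CPM, 0.94, and 0.43 with the list without *Lyz2*). The ratio of 0.94 was reversed after thinning to 1000 UMIs, at -0.19, and was 0.45 without the muscle-richest spots. In granulation-rich spots of Day 7 *Slc40a1* was higher as well (0.88). On Day 14 it had 20 of 268 UMIs in macrophage-rich spots (-0.17, -0.90 to 0.49). After thinning it was found in 1.17%, 3.81% and 7.07% of spots.

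Genes whose pattern over spots was most like that of the globins changed with the day. By Pearson's r of log values over the spots with at least 500 UMIs, the 5 nearest genes on Day 3 were *S100a9* (0.35), *Actb*, *Cxcl2*, *H2-K1* and *Col1a1*. On Day 7 they were *Pvalb* (0.30), *Myl1*, *mt-Co2*, *Tnnt3* and *Atp2a1*, of which all but *mt-Co2* are genes of fast muscle. On Day 14 they were *Tnni2* (0.39), *Myl1*, *Tnnc2*, *Acta1* and *Tpm1*. For *Hmox1* the nearest genes were *Sec61b* (0.33), *Cxcl5*, *Anxa2*, *P4ha2* and *Timp1* on Day 3, *Lgals3* (0.24), *Sparc*, *Col3a1*, *Col5a1* and *Zfp710* on Day 7, and the cornified layer genes *Lce1a2* (0.28), *Flg2*, *Lce1a1* and *Kprp* with *Ctsl* on Day 14. The spots of a section share a library and differ in depth, so these values are descriptions.

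The rest of the path was read from a list of 55 genes of red cells, haem and iron. On Day 7 over Day 3, 37 of them were counted, and 1 was higher and 17 were lower, where 16.9% and 14.4% of all counted genes were. The median log2 ratio was -0.43 against 0.04 over all counted genes. The one higher was *Bpgm*, a glycolytic enzyme gene of red cells that other cells express as well. On Day 14 over Day 7, 4 of 39 were higher and 7 lower, against 22.6% and 14.8% of all genes, and the median was -0.09 against 0.12. On Day 14 over Day 3, 3 of 42 were higher and 18 lower, against 25.6% and 13.6%, and the median was -0.45 against 0.18.

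By role, 6 of the 7 counted genes of the NRF2 and BACH1 group were lower on Day 7 than on Day 3, against 14.4% of all genes. Their levels went from 34.98 to 1.58 CPM for *Slc7a11*, 141 to 65.7 for *Txnrd1*, 55.9 to 28.8 for *Gclm*, 26.0 to 12.2 for *Gclc*, 67.7 to 40.7 for *Bach1* and 92.5 to 57.2 for *Nfe2l2*, which encodes NRF2. On Day 14, *Gclc* (37.7 CPM) and *Nqo1* (12.6 against 6.08 CPM) were higher than on Day 7 and *Srxn1* was lower (14.1 against 39.2 CPM). Among genes of iron uptake, transferrin (*Trf*) went from 433 to 173 and 71.1 CPM over the 3 sections, the phagosomal iron transporter gene *Slc11a1* from 40.6 to 13.5 and 3.90, and the siderophore-binding lipocalin gene *Lcn2* from 23.7 to 1.80 and 6.51. The haptoglobin gene *Hp* was at 257, 120 and 103 CPM. *Hephl1*, a copper ferroxidase gene, was at 4.51, 3.38 and 17.1 CPM and *Flvcr1*, a haem exporter gene, at 33.9, 22.3 and 44.7 CPM.

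Outside the marked tissue 5 of 36 listed genes were higher and 11 lower on Day 3 (8.85% and 33.8% of all genes), 4 of 38 and 5 on Day 7 (7.56% and 31.3%), and 5 of 43 and 8 on Day 14 (5.66% and 44.6%). *Alas2*, the erythroid enzyme of haem synthesis, was higher outside with the globins on Day 3 (39.3 against 10.7 CPM) and Day 14 (17.4 against 6.94 CPM). In blood-rich spots 5 of 29 listed genes were higher and 1 lower on Day 3 (5.06% and 6.6% of all genes), none of 35 was called on Day 7 (4.15% and 5.54%), and 2 of 35 were higher and 8 lower on Day 14 (5.63% and 23.6%). The Day 14 share called lower was near that of all genes. The 5 of Day 3 were *Slc39a14* (1.54), *Slc7a11* (1.39), *Ireb2* (0.997), *Alas1* (0.99) and *Slc48a1* (0.77). The 4-spot patch held 21 UMIs of *Slc39a14*, 14 of *Slc7a11*, 19 of *Slc48a1*, 3 of *Alas1* and 0 of *Ireb2*. In macrophage-rich spots 6 of 29 were higher and 3 lower on Day 3 (12.2% and 9.97% of all genes), 4 of 35 and 1 on Day 7 (6.24% and 11%), and 4 of 35 and 2 on Day 14 (6.9% and 6.95%). *Slc39a14* was again among those of Day 3 (1.51), with *Slc7a11* (1.15), *Slc11a1* (1.12), *Hfe* (1.06), *Txnrd1* (0.65) and *Hp* (0.63). Values of these listed genes without the patch or without *Lyz2* are not given here. The haem uptake receptor gene *Lrp1* was higher in macrophage-rich spots on Day 7 (0.59) and Day 14 (0.93).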

How the data were processed

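The authors counted UMIs with Space Ranger 1.3.0 on mm10 (submitters' processing notes). The deposited counts are raw whole numbers for all 4992 spots of each slide, with the authors' marks of spots under tissue. Frozen sections were captured by poly(dT), and 1 section per day was sequenced.

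UMIs were summed over spots and divided by those of all genes (CPM). For ratios to blood-rich spots, globins were left out of that total. Intervals are exact (Poisson, conditional binomial, Clopper-Pearson; 95%). The interval code was tested on simulated counts. Classes of spots used marked spots with at least 500 UMIs, and thinning used seed 1. No doublet caller was run. Named genes were the 9 members, *Hba-a2*, the listed genes past the limit and the 5 nearest genes. The members and lists were chosen with earlier results of these data known, and the M2 and M3 genes come from the study. *Ahsp*, on the red cell list, had no entry among the counted genes. Positions are from GENCODE M21 (GRCm38), promoters from RefSeq (GRCm38.p6). Alternatives included TMM factors (edgeR 4.0.16), DESeq2 1.42.0 size factors, other spot sets, weights and minimums. Python 3.11.15, numpy 2.4.6, scipy 1.17.1, pandas 2.3.3, matplotlib 3.10.9 and R 4.3.3 were used.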

Additional observations from a re-analysis of the deposited data

Results flagged for a closer look

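For 3 genes the ratio lay on opposite sides of no change in different sections, each with a counting interval that left out no change. *Cd163* was lower outside than under the marked tissue on Day 3 (log2 ratio -1.31) and higher outside on Day 7 (0.88, but -0.11 as a mean of spot CPM) and Day 14 (1.19). *Hmox1* was higher in blood-rich spots on Day 3 (2.19, and 0.11 without the 4 spots richest in globins) and lower on Day 14 (-2.73, from 1 UMI in the blood-rich spots). *Ftl1* was higher in blood-rich spots on Day 3 (0.79, but -0.083 without the 4 spots richest in globins). It was lower there on Day 7 (-0.81, but 0.14 in outside spots) and higher on Day 14 (0.71, but -0.28 without the muscle-richest spots). The difference between days was not tested in any of these cases, since each day is 1 section. Beside them stand measured values that changed between the sections too: the muscle list in blood-rich spots was 39900 CPM on Day 3, 108434 on Day 7 and 155487 on Day 14, and its part was not tested.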

How the results depend on the processing

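No paired analysis was possible because each day is 1 section with no replicate number, and no section was left out since none would remain for its day. The settings that leave out 4 spots were chosen after seeing the data. For the values that answer a comparison, 92 alternatives changed little, 45 moved the value by more than its counting error and 3 reversed it. For the other values these counts were 620, 273 and 13, and 20 alternatives gave no value. The cause of a change was not tested. All values that follow are log2 ratios unless stated.

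Summed globins kept their direction in every alternative. Day 7 over Day 3 was -3.09 over all spots of the slide, -3.59 without the muscle-richest spots, -3.30 without the 4 *Hmox1*-richest spots and -3.15 without the 4 globin-richest. Day 14 over Day 7 was 2.18 with TMM, 2.16 with DESeq2, 1.96 over the slide, 1.80 without muscle and 2.09 without the 4 globin-richest spots. Day 14 over Day 3 was -1.09 as a mean of spot CPM, -1.29 with TMM, -1.33 with DESeq2, -1.13 over the slide, -1.79 without muscle, -1.02 without the 4 *Hmox1* spots and -1.07 without the 4 globin spots. Outside over under, the mean of spot CPM gave 0.46, 0.79 and 0.66 on Day 3, Day 7 and Day 14. Spots with at least 500 UMIs gave 1.76 (Day 3) and 1.64 (Day 14), leaving out 4 spots 1.70 and 1.65, leaving out muscle 1.13 and 2.35, and a distance of 3 pitches 1.75 (Day 3).

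*Hmox1* in blood-rich spots of Day 3 was 1.17 as a mean, 1.49 with 20% of spots called rich, 2.67 with 5%, 2.51 ranked by UMIs, 1.53 thinned, 0.77 without the 4 *Hmox1* spots, 0.11 without the 4 globin spots and -0.19 in outside spots. It was -1.99 thinned on Day 7, and 0.36 in outside spots on Day 14. In macrophage-rich spots of Day 3 it was 1.25 as a mean, 2.81 ranked by UMIs, 2.79 with no minimum, 0.64 thinned, 1.82 in outside spots, 0.55 without the 4 *Hmox1* spots and -1.38 without *Lyz2*. On Day 7 it was 1.86 thinned and 0.42 outside, and on Day 14 it was 1.22 outside.

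Other reversals came from the mean of spot CPM outside over under (*Hmox1* 0.41 and *Blvrb* 0.059 on Day 3, *Cd163* -0.11 on Day 7), from blood-rich spots outside the marked tissue (*Cd163* 1.35 on Day 3, *Ftl1* 0.14 on Day 7), ranked by UMIs (*Slc40a1* 0.42 on Day 14), without the 4 globin spots (*Ftl1* -0.083 on Day 3) and without muscle (*Ftl1* -0.28 on Day 14), and from macrophage-rich spots ranked by UMIs (*Cd163* -0.053), as a mean (*Fth1* -0.055), thinned (*Fth1* -0.23 on Day 3, *Slc40a1* -0.19 on Day 7) or without *Lyz2* (*Fth1* -0.17). Listed genes called on Day 14 over Day 7 were 17 at a minimum of 10 UMIs and 18 at 1, against 11.

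Depth limits Day 3 most, where 144 of 664 marked spots had under 500 UMIs, and *Slc40a1* and *Cd163* rest on 39 and 124 UMIs.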

Other observations

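*Hbb-bh1*, an embryonic β-like globin gene, had 9 UMIs in 9 marked spots of the Day 7 section and none in the marked spots of Day 3 and Day 14 or outside the marked tissue on any slide. The UMIs assigned to the α-globin pair were split unevenly between places. As given earlier, the split within this pair is uncertain, and the intervals cover counting error only. *Hba-a1* per *Hba-a2* was 0.618 (0.582 to 0.657), 0.394 (0.343 to 0.452) and 0.660 (0.624 to 0.698) under tissue on Day 3, Day 7 and Day 14, and 0.818 (0.788 to 0.850), 0.813 (0.767 to 0.861) and 0.850 (0.823 to 0.877) outside. In the blood-rich spots of Day 14 it was 0.993 (0.914 to 1.08).

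Per UMI of the macrophage list, *Hmox1* was 0.0645, 0.0219 and 0.0288 under tissue on Day 3, Day 7 and Day 14. The Day 3 value includes the 4-spot patch, which holds 271 of its 511 *Hmox1* UMIs.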
